A study of Mus musculus with 43 samples.

Results

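RNA of mouse embryonic fibroblasts (MEF) carrying a guide RNA (sgRNA) against Son, for CRISPR activation, was compared with RNA of MEF carrying a control sgRNA. In both cases this was after the solvent DMSO. In CRISPR activation (CRISPRa) a catalytically dead Cas9 joined to transcriptional activators is brought to a promoter by the sgRNA. The comparison rests on 6 of the study's 43 libraries, 3 a side, and on the 11218 of 24327 listed genes that had a mean of at least 1 FPKM (fragments scaled to transcript length and to the library's total) over the 12 CRISPRa libraries. The study holds 13 groups, among them the same sgRNA pair in tunicamycin (3 libraries each) and control or Son siRNA in DMSO or tunicamycin (4 libraries each). All 6 libraries here came from polyadenylated RNA and carried an sgRNA in DMSO, labelled control sgRNA (CRISPRa) on one side and Son sgRNA (CRISPRa), whose genotype label adds Son overexpression, on the other. The guide sequences, the activator, whether the cells were a pool or a clone, and the duration of DMSO are not stated. Nothing in the labels says that the 3 libraries of a group came from separate cultures, so p-values reflect the spread among libraries alone. That spread was estimated over all 12 CRISPRa libraries, those in tunicamycin included, while each difference rests on the 6.

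The SON protein binds RNA and scaffolds nuclear speckles, the bodies that store splicing factors, and it is known for the splicing of weak introns in cell cycle genes. Fibroblasts build the extracellular matrix: fibrillar collagens are secreted, trimmed and crosslinked by lysyl oxidases, laid down with glycoproteins and proteoglycans, and cut by matrix metalloproteinases. Signals of transforming growth factor beta (TGF-β), of Wnt ligands and of YAP and TAZ are known to set the level of many of these genes.

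Son itself, as a check of the label, was not called different. It lies on chromosome 16, 91647506 to 91679221 (GRCm38, mm10). Its level was 46.4, 47.5 and 48.3 FPKM in control libraries A, B and C, and 51.9, 44.6 and 29.8 FPKM in the same order on the Son sgRNA side. Library A of the Son sgRNA side lay above all controls, library B below them and library C far below them, so the groups overlapped. The log2 difference, Son sgRNA minus control on the log2(FPKM + 1) scale used throughout, was −0.20 (SE 0.156, adjusted p = 0.383), and 0.02 (adjusted p = 0.892) without library C. Because the label went without a detected rise of Son RNA, these libraries are named by the label throughout. Gart, a purine synthesis gene that starts next to Son on the opposite strand, stood at −0.03 (adjusted p = 0.745), and Donson, a DNA replication gene whose 3′ end overlaps that of Son, at 0.06 (adjusted p = 0.585). Of 14 tested genes around Son on chromosome 16, Gart and Donson included, 2 were called higher, against 9.11% of all tested genes: the mitochondrial ribosomal protein gene Mrps6 at 0.52 (adjusted p = 0.0244) and the interferon gamma receptor gene Ifngr2 at 0.21 (adjusted p = 0.0404), the latter 0.15 (adjusted p = 0.0537) without library C. The interferon receptor gene Ifnar2 stood at −0.08 (adjusted p = 0.605), and without library C at −0.22 (adjusted p = 0.00691). Mrps6 shares its start region with Slc5a3, and the counting's use of strand is not stated for these overlapping genes.

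The promoter window of Son is shown because a guide for CRISPRa acts at a promoter. It holds 250 bases before and 50 after the start annotated by RefSeq (chr16:91647574-91647873, plus strand, GRCm38.p6). The coordinates of Son given above come from GENCODE and start before this window, so by them the whole window lies within the gene. No capitals are used since neither of the 2 motifs marked further below was found in it.
Son: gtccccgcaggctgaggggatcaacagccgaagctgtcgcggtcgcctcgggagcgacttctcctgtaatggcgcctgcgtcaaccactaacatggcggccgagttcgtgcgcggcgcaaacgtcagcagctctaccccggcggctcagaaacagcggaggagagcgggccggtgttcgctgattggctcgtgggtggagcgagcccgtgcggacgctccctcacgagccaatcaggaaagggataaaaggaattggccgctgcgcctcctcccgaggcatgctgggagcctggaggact

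Library C labelled Son sgRNA differed from the other 5 libraries in how its values moved with transcript length. Against the control mean its values changed by −0.213 (log2) per doubling of length, and the other 5 libraries by −0.0213 to 0.0174. The 2704 genes of up to 2191 bases had a median log2 difference of 0.334 there, and the 2703 genes of 4767 bases or more −0.294. In libraries A and B these medians were 0.0115 and 0.05 for the short genes and 0.0554 and 0.0143 for the long ones. Summed FPKM was 498414 in library C and 406124 to 423498 in the other 5. The Son transcript of 8731 bases is among the long ones. Read depth is unknown, since the values are FPKM. Many counts and some values of single genes are also given without library C for this reason. The others hold library C and can shift without it. The log2 difference of Fbn1 (11971 bases), for example, was −1.03 and without library C −0.90, and that of Serpinf1 (1832 bases) 0.84 and 0.72.

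**Figure D1:**
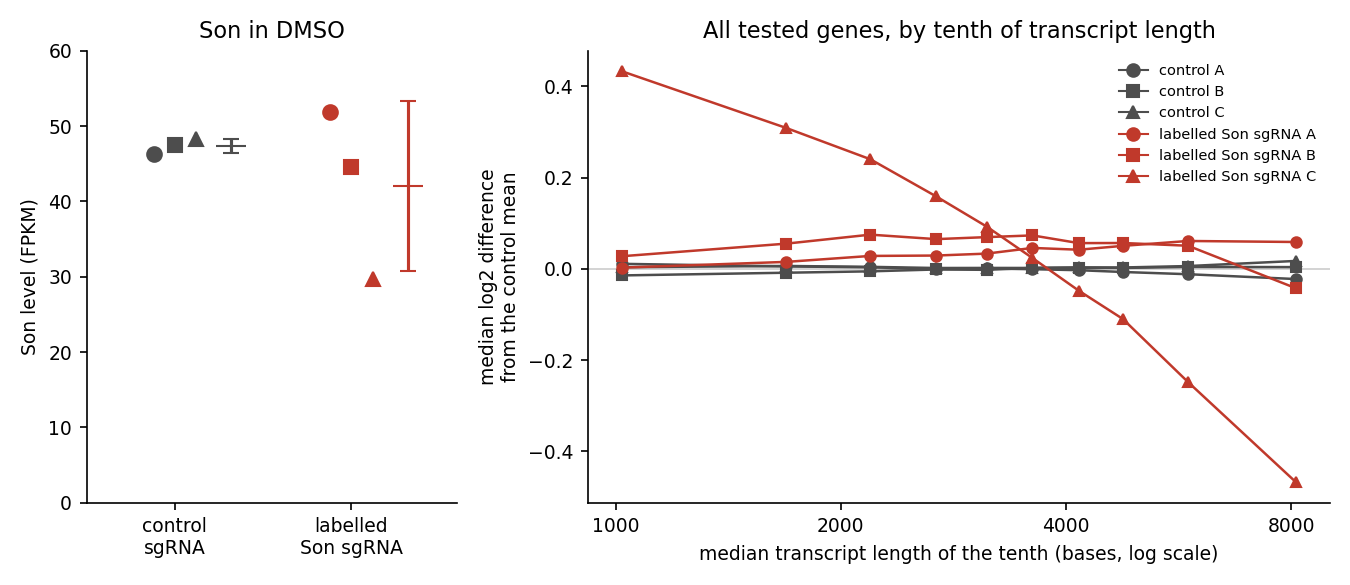
Left, Son level (FPKM) in each library in DMSO, with the mean and SD of each group beside the points. Right, the median log2 difference of each library from the mean of the controls (y axis) in 10 bins of equal size by transcript length (x axis, bases, log scale): library C labelled Son sgRNA falls from 0.433 in the shortest bin to −0.468 in the longest, and the other 5 libraries stay between −0.0426 and 0.0748.

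The label of the cells was checked against markers. Of 11 fibroblast markers, the intermediate filament gene Vim (762 FPKM in control), the collagen gene Col1a1 (709.8 FPKM) and S100a4 (375 FPKM) were high. Thy1 was listed at 0 and Col1a2, Lum and Fap stayed below 1 FPKM in all 6 libraries, so these defining markers were absent or nearly so. Of 12 macrophage markers 9 stayed below 1 FPKM in every library. The summed level of the macrophage list was 10.4 to 12.5 FPKM in control and 11.4 to 16.8 FPKM with Son sgRNA. All 8 endothelial markers stayed below 1 FPKM. Of 8 epithelial markers 6 stayed below 1 FPKM and Krt19 was at 42.2 to 65.9 FPKM, and the sum of the others was 0.598 to 0.861 FPKM in control and 1.65 to 2.31 FPKM with Son sgRNA, mostly Krt18. Among 8 markers of cartilage and bone, Alpl had a mean of 1.14 FPKM in control and 2.83 FPKM with Son sgRNA, while the summed level was 17.0 to 18.2 and 16.9 to 18.5 FPKM. The part of such markers in the results was not tested.

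Across the tested genes, 1615 were called at a Benjamini-Hochberg adjusted p under 0.05 (14.4%), 1022 higher (9.11%) and 593 lower (5.29%) in the libraries labelled Son sgRNA. Without library C the fit called 2057 genes (18.3%), 1312 higher (11.7%) and 745 lower (6.64%), and 1445 of the 1615 were called in the same direction. The number of calls moved by over 1.5 times without Son sgRNA library A (2646 genes) and without control library A (892), B (746) or C (760). The higher share of calls was 63.3%, 43.1% after median-ratio scaling of the libraries (6.06% of tested genes higher, 7.99% lower) and 46.7% after removal of the length trend (22.6% called), so the balance between higher and lower calls depends on the scaling. The median log2 difference of all tested genes was 0.047. Genes called higher had a median transcript length of 2806 bases, those called lower 3905 bases and all tested genes 3377.5 bases, while without library C these were 3339 and 3271 bases for higher and lower. A change of at least 2-fold, here and below on the log2(FPKM + 1) scale, was reached by 44 called genes, 36 lower (0.321% of tested genes) and 8 higher (0.0713%). All 44 were also called without library C. In bulk RNA, fewer cells of a type and less RNA per cell cannot be told apart.

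Many genes of the extracellular matrix were lower. Taken over 6 lists of matrix genes, 38 of 111 tested members were called lower (34.2%, against 5.29% of all tested genes) and 8 higher (7.21%, against 9.11%), with a median log2 difference of −0.16 beside 0.047 for all tested genes. Without library C 47 were lower and 13 higher (median −0.18), and leaving out any 1 of the 12 CRISPRa libraries gave 29 to 47 lower and 3 to 13 higher. A further 74 listed genes had a mean under 1 FPKM and were not tested. The lists and their members were chosen with earlier results of these data known. Their shares therefore describe the lists and are no independent support. For every list below, the shares of all tested genes are 9.11% higher and 5.29% lower. Below, a value in brackets after a gene is its log2 difference, and means are given ± SD over the 3 libraries of a group. Of all tested genes 4240 (37.8%) had no overlap between the 3 libraries of one side and the 3 of the other. The genes named by size of rise or fall were chosen for having none.

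Fibrillar collagens, the rope-like collagens of connective tissue, had 6 tested members and all 6 were called lower, with a median of −0.60 (−0.44 without library C). Without control library B or C in DMSO, 3 of the 6 were called lower. Col3a1, the collagen of elastic tissues (chromosome 1, 45311538 to 45349706), was at 91.2, 100.1 and 96.0 FPKM in the control libraries and at 25.8, 29.8 and 25.7 FPKM in the libraries labelled Son sgRNA. The groups did not overlap and library C did not stand apart. Its log2 difference was −1.78 (SE 0.145, adjusted p = 1.7e-05), and −1.75 (adjusted p = 2.1e-05) without library C. Col5a2, a minor chain that joins fibrils and lies beside Col3a1 on chromosome 1, was at 78.7, 83.8 and 83.1 FPKM in control and 47.3, 52.8 and 39.3 FPKM with Son sgRNA, a log2 difference of −0.81 (SE 0.0886, adjusted p = 0.00015). Col5a1 (−0.57, adjusted p = 0.014; without library C −0.38, adjusted p = 0.0029), Col5a3 (−0.53, adjusted p = 0.0185), Col11a1 (−0.64, adjusted p = 0.00223) and Col1a1 (−0.36, adjusted p = 0.0218) completed the group. Of 11 other collagens 1 fell, Col12a1, which sits on fibril surfaces (−0.81, adjusted p = 0.00763), and 1 rose, the beaded filament collagen Col6a1 (0.24, adjusted p = 0.0336) (list median −0.05). Without library C 3 rose and 1 fell (median 0.07), and after median-ratio scaling none rose. Under quantile normalization 5 of the 6 fibrillar collagens were called lower.

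Of 28 genes that process and crosslink collagen, 6 fell (21.4%) and 4 rose (14.3%, against 9.11% of all tested genes) (median −0.04; without library C 9 and 4). Lox, the lysyl oxidase that starts crosslinks between collagen and elastin chains, had 237, 250.3 and 242 FPKM in control and 119, 129 and 104 FPKM with Son sgRNA. All 3 libraries labelled Son sgRNA lay far below the lowest control. The log2 difference was −1.05 (SE 0.106, adjusted p = 8.82e-05). Adamts2, which cuts off the collagen N-propeptide, fell, at a log2 difference of −0.64 (adjusted p = 0.000651). Pcolce2, an enhancer of the C-proteinase, rose from 6.09 ± 0.587 to 11.6 ± 1.07 FPKM (0.83, adjusted p = 0.000313), and P3h2, a prolyl 3-hydroxylase, rose from 1.43 ± 0.187 to 2.63 ± 0.612 FPKM (0.56, adjusted p = 0.00738).

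Among 32 matrix glycoproteins and elastic fibre genes, 11 fell and 1, the calcium-binding matrix gene Smoc1, rose (median −0.22; without library C 14 and 1). Thbs2, a thrombospondin that clears metalloproteinases and shapes collagen fibrils, had 11.8, 14.2 and 13.1 FPKM in control and 3.9, 3.83 and 3.20 FPKM with Son sgRNA. The groups lay far apart, with a log2 difference of −1.60 (SE 0.0841, adjusted p = 6.81e-07). Lama4, a laminin chain of basement membranes, fell from 4.16 ± 0.242 to 1.25 ± 0.171 FPKM (−1.2, adjusted p = 1.69e-05). Ltbp2, a protein of elastic microfibrils, fell from 3.87 ± 0.188 to 1.2 ± 0.0959 FPKM (−1.14, adjusted p = 2.32e-06), and Fbn1, the fibrillin that forms these microfibrils, from 7.83 ± 0.646 to 3.37 ± 0.867 FPKM (−1.03, adjusted p = 0.000506). The fibulins Fbln1, Fbln2 and Fbln5 and tenascin Tnc were also called lower, at −0.52, −0.71, −0.76 and −0.78. Of 14 genes for proteoglycans and hyaluronan, 7 fell and none rose (median −0.40; without library C 8 fell and 2 rose). Vcan, a large hyaluronan-binding proteoglycan, fell from 6.34 ± 0.360 to 2.45 ± 0.466 FPKM (−1.10, adjusted p = 0.000229), and Has2, which makes hyaluronan, from 2.16 ± 0.115 to 0.713 ± 0.162 FPKM (−0.89, adjusted p = 0.000378). The small leucine-rich proteoglycan genes Ogn and Omd, neighbours on chromosome 13, fell, at log2 differences of −0.87 (adjusted p = 2.24e-05) and −0.74 (adjusted p = 0.00267), and their relatives Dcn and Bgn were at −0.53 and −0.39.

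Several proteases that cut the matrix were lower as well. Of 20 tested proteases and inhibitors 7 fell and 2 rose, Mmp19 at 0.20 and the urokinase receptor gene Plaur at 0.34 (list median −0.19; without library C 9 and 3). Mmp3, the stromelysin that activates other metalloproteinases (chromosome 9, 7445822 to 7455975), had 12, 13.9 and 12.5 FPKM in control and 1.49, 1.8 and 2.69 FPKM with Son sgRNA. Every library labelled Son sgRNA lay far below every control, and library C was the highest of the 3. The log2 difference was −2.22 (SE 0.139, adjusted p = 2.32e-06). Among called genes without overlap and with at least 5 FPKM in the higher group, predicted genes and pseudogenes passed over, it was the largest fall. Mmp13, a collagenase in the same gene cluster (chromosome 9, 7272514 to 7283331), had 9.40, 10.1 and 9.99 FPKM in control and 2.29, 2.77 and 2.94 FPKM with Son sgRNA, again without overlap. Its log2 difference was −1.57 (SE 0.0859, adjusted p = 7.76e-07). Mmp2, the gelatinase A gene on another chromosome (chromosome 8, 92827291 to 92853420), had 26.2, 27.4 and 27.6 FPKM in control and 9.22, 9.46 and 9.35 FPKM with Son sgRNA, a log2 difference of −1.44 (SE 0.0656, adjusted p = 2.49e-07). Its 3 libraries labelled Son sgRNA lay close together. The inhibitor Timp3 fell from 24.2 ± 0.938 to 14.7 ± 0.968 FPKM (−0.68, adjusted p = 0.00029).

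**Figure D2:**
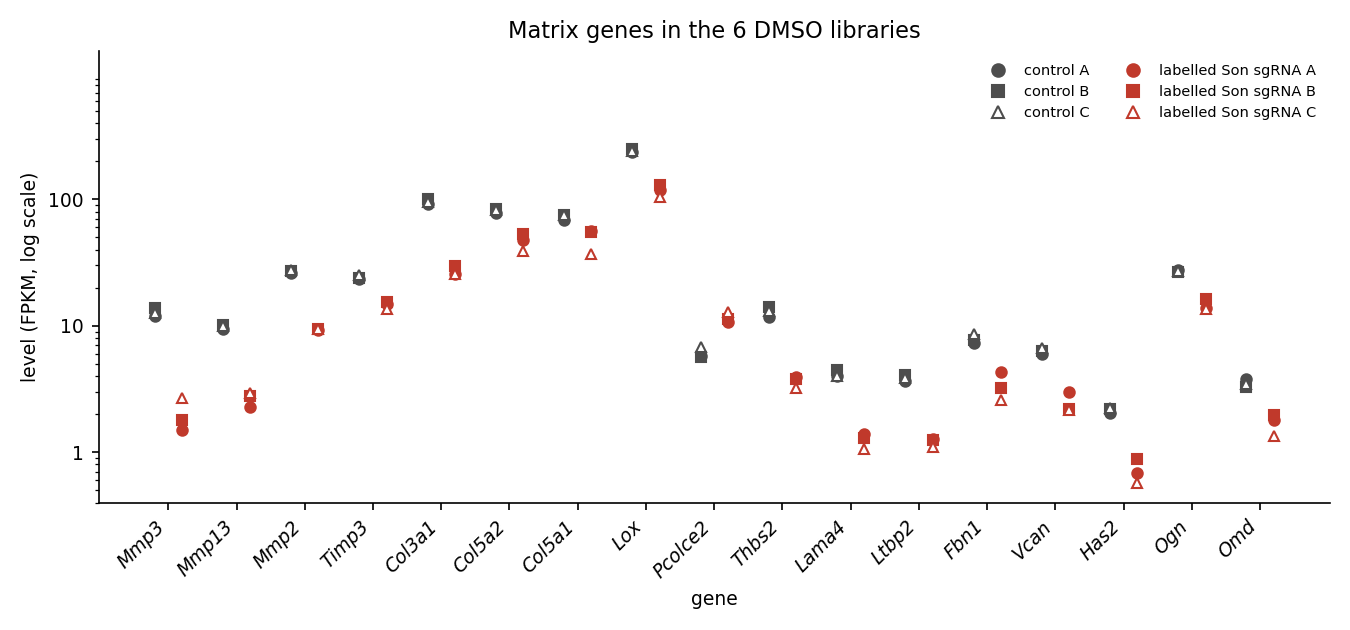
Level (FPKM, log scale) of 17 matrix genes in each of the 6 libraries in DMSO, control in grey and labelled Son sgRNA in red, with library C drawn open. For 16 genes the 3 libraries labelled Son sgRNA lie below the 3 controls, and for Pcolce2 above them. Of all tested genes 37.8% had no overlap in either direction, and several genes shown were chosen for having none.

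The promoter windows of Mmp3, Mmp13 and Col3a1 are shown because these genes moved together, with that of Gpnmb, the lysosomal gene described below, which moved the other way. Each holds 250 bases before and 50 after the start, on the plus strand of GRCm38.p6 as given by RefSeq (chr9:7445572-7445871, chr9:7272264-7272563, chr1:45311288-45311587 and chr6:49036268-49036567). Capitals mark matches on either strand to TGANTCA, the AP-1 motif, and to TATAAA, the TATA motif, and in these windows no match of one overlaps a match of the other.
Mmp3: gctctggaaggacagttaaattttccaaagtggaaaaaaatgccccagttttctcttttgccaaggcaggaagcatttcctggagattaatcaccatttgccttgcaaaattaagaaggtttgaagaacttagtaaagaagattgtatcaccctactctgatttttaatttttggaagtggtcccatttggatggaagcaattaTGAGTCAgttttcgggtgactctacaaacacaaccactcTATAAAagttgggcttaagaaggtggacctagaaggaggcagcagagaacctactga
Mmp13: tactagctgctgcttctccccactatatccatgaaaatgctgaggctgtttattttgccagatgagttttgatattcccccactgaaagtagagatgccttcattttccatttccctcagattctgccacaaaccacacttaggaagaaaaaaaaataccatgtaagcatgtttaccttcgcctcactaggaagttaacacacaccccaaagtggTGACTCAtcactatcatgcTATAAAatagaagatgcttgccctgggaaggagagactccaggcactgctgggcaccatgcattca
Col3a1: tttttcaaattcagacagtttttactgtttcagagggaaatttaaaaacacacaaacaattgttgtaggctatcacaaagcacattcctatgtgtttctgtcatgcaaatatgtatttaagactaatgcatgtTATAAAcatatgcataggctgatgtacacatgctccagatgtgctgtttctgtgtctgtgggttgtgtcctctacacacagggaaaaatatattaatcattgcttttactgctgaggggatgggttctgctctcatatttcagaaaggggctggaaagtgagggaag
Gpnmb: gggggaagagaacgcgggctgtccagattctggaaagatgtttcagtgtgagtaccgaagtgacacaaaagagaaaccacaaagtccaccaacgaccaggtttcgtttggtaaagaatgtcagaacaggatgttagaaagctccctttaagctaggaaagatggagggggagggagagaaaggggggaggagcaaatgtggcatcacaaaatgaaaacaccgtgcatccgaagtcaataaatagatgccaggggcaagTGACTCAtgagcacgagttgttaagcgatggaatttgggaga

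Mmp3 and Mmp13 each held 1 AP-1 and 1 TATA match, Col3a1 a TATA match, and Gpnmb 1 AP-1 match. Among promoter windows the AP-1 motif was found in 5.91% of 8562 tested genes with a window, in 8.31% of 397 genes called lower and in 7.14% of 826 called higher, and in 8.97% of all 27025 windows. The TATA motif was found in 8.08% of tested genes, 11.6% of those lower, 8.11% of those higher and 15.7% of all windows. Of 22 genes at least 2-fold lower with a window, 3 held the AP-1 and 9 the TATA motif. A match is a description of these letters and not a site of binding.

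Several genes of the contractile apparatus were also lower. Of 26 tested, 8 fell (30.8%) and 1 rose (median −0.18; without library C 12 and 1, after median-ratio scaling 13 and 1). Myl9, a regulatory light chain of non-muscle and smooth muscle myosin, had 23.4, 23.1 and 25.2 FPKM in control and 8.02, 8.99 and 10.7 FPKM with Son sgRNA, without overlap, a log2 difference of −1.29 (SE 0.106, adjusted p = 1.97e-05). Tagln, an actin-binding marker of contractile cells, fell from 2.71 ± 0.301 to 1.45 ± 0.0605 FPKM (−0.60, adjusted p = 0.00245). Acta2, the alpha smooth muscle actin of myofibroblasts, went the other way, with 2.92, 3.04 and 3.30 FPKM in control and 5.15, 5.95 and 6.42 FPKM with Son sgRNA (0.74, adjusted p = 8.81e-05). Flna, the actin crosslinker filamin A, fell, at −0.50 (adjusted p = 0.041) and had its lowest level in library C (−0.27, adjusted p = 0.012 without it).

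Most of the signalling genes called were lower. Of 29 TGF-β and BMP pathway genes 7 fell and 2 rose (median −0.15; −0.05 without library C, where 8 fell and 2 rose, and 4 fell without control library A, B or C). Grem1, a secreted BMP antagonist, fell from 4.15 ± 0.305 to 1.05 ± 0.440 FPKM (−1.35, adjusted p = 8.66e-05), and the activin subunit gene Inhba from 3.19 ± 0.265 to 1.5 ± 0.431 FPKM (−0.76, adjusted p = 0.00178). The ligand Bmp2 rose from 1.45 ± 0.0440 to 2.45 ± 0.280 FPKM (0.49, adjusted p = 0.0013) and Id1, a transcriptional target of BMP signals, from 25.7 ± 2.21 to 38.0 ± 4.74 FPKM (0.54, adjusted p = 0.00257). Of 22 YAP and TAZ targets 5 fell and 1, Nuak2, rose (median −0.19; without library C 7 and 1, after median-ratio scaling 9 and 1, without Son sgRNA library A 9 fell). The matricellular genes Cyr61 and Ctgf fell from 71.5 ± 2.09 to 41.4 ± 4.27 FPKM (−0.78, adjusted p = 2.75e-05) and from 3.00 ± 0.0907 to 1.87 ± 0.129 FPKM (−0.48, adjusted p = 0.000454). Of 26 Wnt pathway genes 10 fell and none rose (38.5% lower; median −0.14), and without library C 9 fell and 2 rose, while without Son sgRNA library A, control library B or C in DMSO, or control library A in tunicamycin, 6 fell. They included the receptor gene Fzd1, from 12.3 ± 0.490 to 6.32 ± 0.814 FPKM (−0.87, adjusted p = 5.92e-05), and the feedback inhibitors Nkd2 (−0.99, adjusted p = 2.7e-05), Axin2 (−0.50, adjusted p = 0.0032) and Rnf43 (−0.44, adjusted p = 0.00311). Of 24 growth factor receptors and ligands 4 fell and 1 rose, while 5 fell and 3 rose without library C and 2 fell without control library B or C. Egfr, the epidermal growth factor receptor gene, fell from 5.93 ± 0.194 to 2.75 ± 0.515 FPKM (−0.89, adjusted p = 0.000179) and Nrg1, a ligand of its family, from 8.03 ± 0.398 to 4.01 ± 0.0739 FPKM (−0.85, adjusted p = 1.4e-05).

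Among 32 transcription factor genes of mesenchyme, 10 fell (31.3%) and 4 rose (median −0.15; without library C 12 and 3). Tbx18, a T-box factor of mesenchymal progenitors, fell from 3.74 ± 0.161 to 1.59 ± 0.135 FPKM (−0.87, adjusted p = 1.7e-05). Prrx1, a homeobox factor of limb mesenchyme, had 33.0, 34.7 and 34.1 FPKM in control and 21.4, 22.9 and 18.1 FPKM with Son sgRNA, without overlap (−0.69, adjusted p = 0.000231). Msx1 (−0.62, adjusted p = 0.000101) and Foxf1 (−0.53, adjusted p = 0.000611) fell too, and Msx2, Tbx5, Twist2 and Gata2 rose by 0.44, 0.32, 0.26 and 0.19. Of 15 tested Hox genes, which record position along the body and limb axes, 5 rose and 2 fell. Hoxb9 was at 0.561, 0.377 and 0.449 FPKM in control and 2.50, 2.27 and 2.35 FPKM with Son sgRNA, with a log2 difference of 1.21 (SE 0.0930, adjusted p = 1.4e-05). Every library labelled Son sgRNA lay far above every control. Hoxd8 rose by 0.50 (adjusted p = 0.00137), while Hoxd11 and Hoxd13, from the posterior end of the same cluster, fell, at −0.46 (adjusted p = 0.0013) and −0.36 (adjusted p = 0.00205).

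Genes of inflammation and of antigen processing moved in both directions. Of 17 complement and acute phase genes 7 fell (41.2%) and none rose (without library C 6 and none). Steap4, a metalloreductase raised by inflammation, had 9.50, 9.39 and 9.33 FPKM in control and 3.79, 3.74 and 3.8 FPKM with Son sgRNA, with little spread in either group (−1.12, adjusted p = 1.7e-05). Saa3, an acute phase apolipoprotein, had 148, 133 and 138 FPKM in control and 61.1, 51.7 and 98.7 FPKM with Son sgRNA (−1.03, adjusted p = 0.011), with library C the highest of its group. Complement C4b and haptoglobin Hp fell, at −0.80 (adjusted p = 5.92e-05) and −0.73 (adjusted p = 0.0014). Of 22 chemokines and cytokines 5 fell and 2 rose (without library C 4 and 3; 3 fell without Son sgRNA library B or control library A, B or C), led by Il33, an alarmin, from 10.1 ± 0.747 to 4.21 ± 0.685 FPKM (−1.10, adjusted p = 0.000292) and by the neutrophil attractant Cxcl5, from 139 ± 17.9 to 72.6 ± 3.63 FPKM (−0.92, adjusted p = 0.000887). Nos2, the inducible nitric oxide synthase, fell from 7.64 ± 1.14 to 2.31 ± 0.597 FPKM (−1.39, adjusted p = 0.000873), and Cyba, a subunit of the superoxide-making NADPH oxidase, from 50.5 ± 1.68 to 18.7 ± 3.78 FPKM (−1.40, adjusted p = 1.69e-05).

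Of 20 genes of MHC class I presentation 3 fell and 1 rose (without library C 6 and 2). Psmb8, a catalytic subunit of the immunoproteasome, had 96.0, 88.7 and 94.4 FPKM in control and 35.9, 38.3 and 50.3 FPKM with Son sgRNA. The groups did not overlap, library C lay nearest to the controls, and the log2 difference was −1.16 (SE 0.0962, adjusted p = 1.99e-05), −1.30 (adjusted p = 1.87e-08) without library C. Its cluster neighbours stood at −0.34 (adjusted p = 0.0331) for Psmb9, where library C was above the lowest control, and at −0.25 (adjusted p = 0.014) for Tap1. Cd74, the invariant chain of MHC class II, had 72.8, 88.4 and 87.0 FPKM in control and 136, 149 and 168 FPKM with Son sgRNA, without overlap, and rose by 0.86 (SE 0.0859, adjusted p = 8.66e-05). Of the 12 macrophage markers Adgre1 and Tyrobp were at 0 and the summed level ranged as given above, while Cd68 had a mean of 5.35 FPKM in control and 7.56 FPKM with Son sgRNA. Lyz2 was at 0.184, 0.436 and 0.147 FPKM in control and at 0.608, 0.508 and 1.09 FPKM with Son sgRNA, without overlap. Other markers went the other way: Cd14 had a mean of 5.86 FPKM in control and 5.32 FPKM with Son sgRNA. Csf1r, Mrc1, Fcgr1, Cx3cr1 and Aif1, all near 0, also had lower means with Son sgRNA. Ptprc and Itgam were at or near 0. Their part in the Cd74 values was not tested. Among 6 class II genes 1 other was called, H2-DMa, at −0.39. Of 52 interferon response genes 5 rose (9.62%, against 9.11% of all tested genes) and 2 fell, a share near the background. After median-ratio scaling 2 rose and 3 fell, and 11 rose without Son sgRNA library A and 2 without control library A, B or C.

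**Figure D3:**
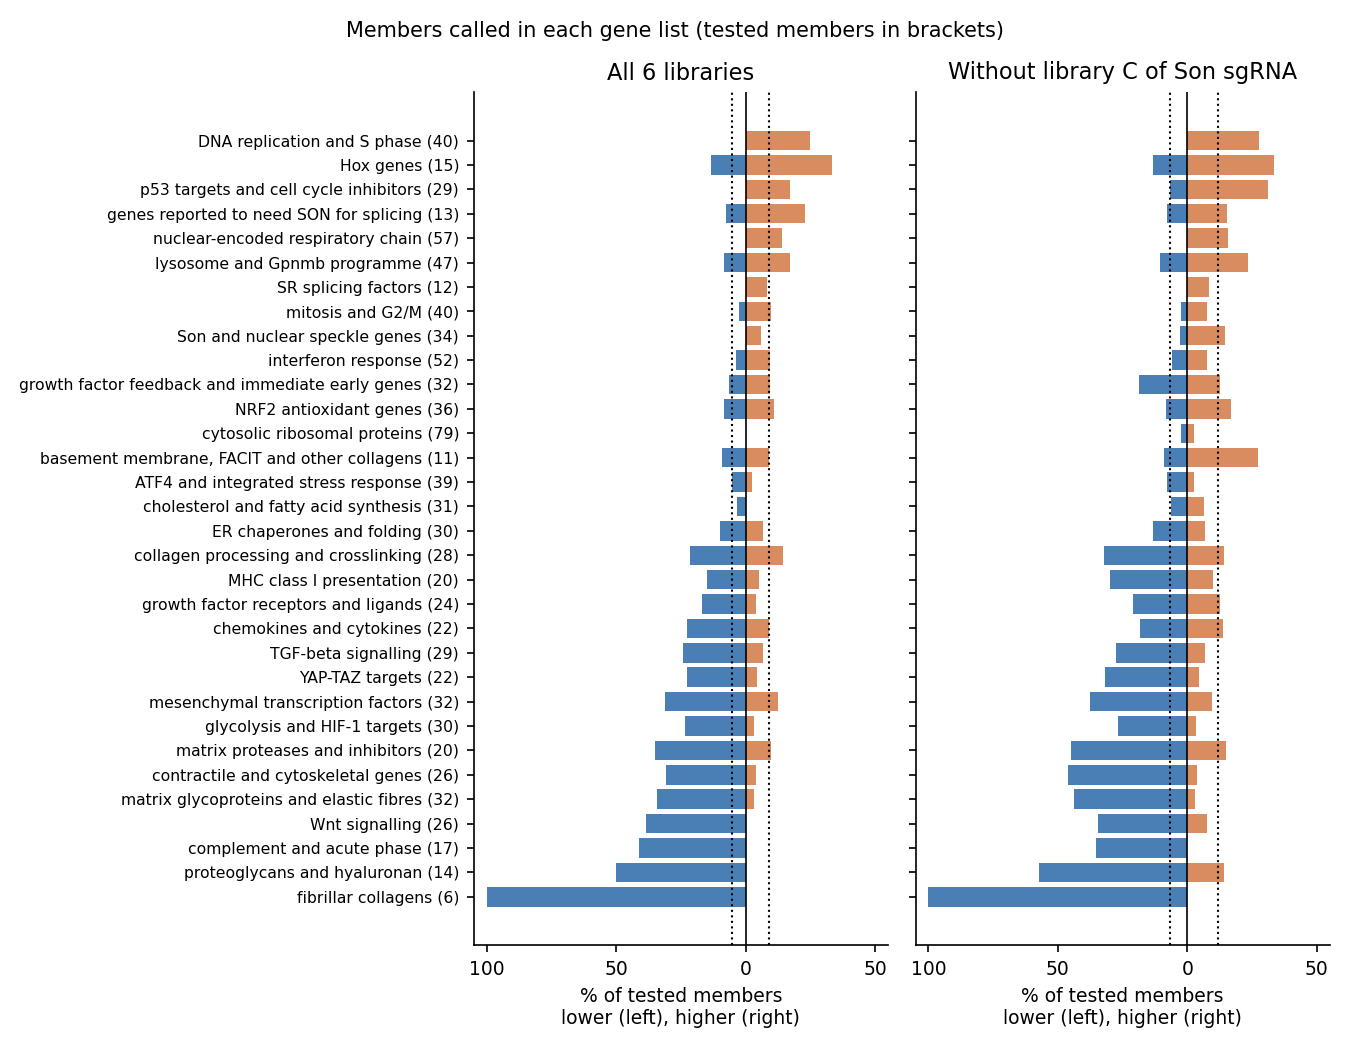
Share of tested members of each gene list called lower (blue, to the left) or higher (orange, to the right), in percent, with all 6 libraries (left panel) and without library C labelled Son sgRNA (right panel). Brackets give the number of tested members, and dotted lines give the share of all tested genes called lower and higher, 5.29% and 9.11% on the left and 6.64% and 11.7% on the right. Fibrillar collagens, with 6 of 6 lower, stand at the bottom of both panels.

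The 8 called genes that rose at least 2-fold on the log2(FPKM + 1) scale were Ckb, Hoxb9, Mal, Rbp4, Phf11d, Selp, Gpnmb and Aldoc. On FPKM itself the set would differ, since that scale understates the change of low genes. Ckb, the brain-type creatine kinase that buffers ATP (chromosome 12, 111669361 to 111672338), had 2.92, 2.13 and 2.28 FPKM in control and 7.21, 6.90 and 7.53 FPKM with Son sgRNA. The groups did not overlap and the log2 difference, 1.26 (SE 0.0918, adjusted p = 8.96e-06), was the largest rise among called genes with at least 5 FPKM in the higher group. Gpnmb, a transmembrane glycoprotein of lysosomes and melanosomes (chromosome 6, 49036546 to 49070929), had 16.1, 17.0 and 16.6 FPKM in control and 32, 34.9 and 37.8 FPKM with Son sgRNA, without overlap, a log2 difference of 1.03 (SE 0.0651, adjusted p = 2.44e-06). Igf2bp3, an RNA-binding protein of fetal tissue that lies next to Gpnmb, rose from 3.61 ± 0.237 to 6.97 ± 0.482 FPKM (0.79, adjusted p = 2.64e-05). Of 47 genes in a lysosomal list that includes Gpnmb, 8 rose (17.0%, against 9.11% of all tested genes) and 4 fell (8.51%, against 5.29%). After median-ratio scaling 5 rose and 5 fell, and 17 rose without Son sgRNA library A and 3 without control library A, B or C. The protease gene Ctsc fell from 29.5 ± 0.979 to 17.4 ± 0.972 FPKM (−0.73, adjusted p = 8.48e-05).

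Genes of lipid handling were among the others named by size of rise. Pparg, the nuclear receptor that drives fat cell formation, rose from 2.59 ± 0.387 to 5.21 ± 0.636 FPKM (0.79, adjusted p = 0.000274), and Angptl4, a secreted inhibitor of lipoprotein lipase, from 13.4 ± 1.98 to 24.5 ± 2.88 FPKM (0.83, adjusted p = 0.000515). Of 7 fat cell markers, Pparg included, Adipoq and Cfd were at 0 in all 6 libraries and 4 stayed below 1 FPKM, among them Lpl with a mean of 0.0320 FPKM in control and 0.218 FPKM with Son sgRNA, without overlap. Cebpa went the other way, with a mean of 1.36 FPKM in control and 0.965 FPKM with Son sgRNA, without overlap. Fabp4, the highest, had a mean of 10.5 FPKM in control and 7.33 FPKM with Son sgRNA. The summed level was 13.2 to 15.7 FPKM in control and 11.3 to 16.9 FPKM with Son sgRNA. Without Fabp4 the markers, with Pparg itself among them, summed to 3.47 to 4.31 and 5.57 to 7.06 FPKM. Their part in the rise of Pparg was not tested. Serpinf1, a secreted anti-angiogenic serpin, rose from 31.3 ± 0.611 to 57.4 ± 9.25 FPKM (0.84, adjusted p = 0.000108). Trim54, a RING-finger gene of striated muscle, rose from 9.19 ± 0.450 to 17.8 ± 2.88 FPKM (0.88, adjusted p = 0.000124), with library C the highest, and Phf11d, a PHD finger gene, rose from 2.96 ± 0.356 to 7.58 ± 1.16 FPKM (1.11, adjusted p = 8.48e-05). Of 36 tested NRF2 antioxidant genes 4 rose (11.1%, near the 9.11% of all tested genes) and 3 fell (8.33%, against 5.29%), and without library C 6 rose and 3 fell. Gsta4, a glutathione transferase for lipid aldehydes, rose from 8.60 ± 0.333 to 15.8 ± 3.92 FPKM (0.79, adjusted p = 0.00352; without library C 0.60, adjusted p = 0.00119), and Sod3, the extracellular superoxide dismutase, had 19.2, 18.0 and 19.0 FPKM in control and 5.54, 5.69 and 6.38 FPKM with Son sgRNA (−1.52, adjusted p = 2.49e-07). The remaining genes of large fall were the mitochondrial gene Mgarp, from 5.27 ± 0.434 to 0.905 ± 0.210 FPKM (−1.72, adjusted p = 1.18e-05), Ndnf, a secreted neurotrophic factor, from 7.37 ± 0.382 to 1.64 ± 0.212 FPKM (−1.67, adjusted p = 2.49e-07), and Selenbp1, a selenium-binding oxidase of methanethiol, from 7.80 ± 1.74 to 1.78 ± 0.337 FPKM (−1.65, adjusted p = 2.7e-05).

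Some cell cycle genes rose by small amounts. Of 40 replication and S phase genes 10 rose (25%, against 9.11% of all tested genes) and none fell (median 0.11; 11 rose without library C, 8 after median-ratio scaling, and 5, 5 and 4 without control library A, B or C). Prim1, the small primase subunit, rose from 52.9 ± 1.26 to 72.1 ± 6.21 FPKM (0.44, adjusted p = 0.00101), and cyclin E1, Ccne1, from 20.3 ± 1.49 to 26.7 ± 1.77 FPKM (0.38, adjusted p = 0.00493). Of 29 p53 targets and cell cycle inhibitors 5 rose (17.2%, against 9.11% of all tested genes) and none fell (without library C 9 and 2). Those that rose included the p53 ubiquitin ligase gene Mdm2 (0.33, adjusted p = 0.00432) and the antiproliferative gene Btg2 (0.43, adjusted p = 0.000323). Of 40 mitotic genes 4 rose (10%, near the 9.11% of all tested genes) and 1 fell (2.5%, against 5.29%), the kinase gene Aurkb (−0.25, adjusted p = 0.0176). After median-ratio scaling 1 rose and 1 fell. No mitotic gene was called higher with chromosome medians removed, nor without control library A, B or C in DMSO or control library C in tunicamycin.

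Of 57 nuclear-encoded respiratory chain genes 8 rose (14%, against 9.11% of all tested genes) and none fell. None of the 57 had a log2 difference below 0, while 40 of them were below 0 in tunicamycin. Their median of 0.23 was 0.07 without library C, and the number called higher ran from 1 without control library B to 31 without Son sgRNA library A. It was 3 after median-ratio scaling, 3 with chromosome medians removed and 16 with the length trend removed (median 0.09). Uqcrb, a complex III subunit with a transcript of 565 bases, had 164, 162 and 171 FPKM in control and 186, 199 and 284 FPKM with Son sgRNA (0.40, adjusted p = 0.0479; without library C 0.21, adjusted p = 0.00856), with library C far above A and B. The 79 ribosomal protein genes had no call and a median of 0.16 that became −0.02 without library C. Of 30 glycolysis and HIF-1 target genes 7 fell (23.3%) and 1 rose (without library C 8 and 1; 4 fell without control library B or C). Adm, the vasodilator adrenomedullin, had 13.6, 16.3 and 15.4 FPKM in control and 6.95, 7.27 and 12.3 FPKM with Son sgRNA (−0.75, adjusted p = 0.0453; without library C −0.98, adjusted p = 0.00428). The lactate exporter Slc16a3 fell from 95.8 ± 5.07 to 57.2 ± 5.64 FPKM (−0.74, adjusted p = 0.044) and the carbonic anhydrase Car9 from 1.64 ± 0.119 to 0.709 ± 0.192 FPKM (−0.63, adjusted p = 0.00257). Aldoc, the brain-type aldolase, rose from 0.874 ± 0.0763 to 2.81 ± 0.537 FPKM (1.02, adjusted p = 0.000306).

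Of 34 speckle genes 2 rose (5.88%), the splicing-linked Acin1 (0.27) and the kinase Dyrk3 (0.26). Of 12 SR splicing factors 1 rose (8.33%), Tra2a (0.27). Both shares lay below the 9.11% of all tested genes called higher. Without library C 5 speckle genes rose and 1 fell, and 1 SR factor rose. Of 13 genes reported in other work to need SON for splicing 3 rose (23.1%) and 1 fell (7.69%, against 5.29% of all tested genes). After median-ratio scaling none rose and 1 fell. FPKM per gene does not measure splicing. Of 30 chaperone and folding genes of the endoplasmic reticulum 2 rose (6.67%) and 3 fell (10%). After median-ratio scaling these were 0 and 5, and under quantile normalization 2 and 6. Of 39 ATF4 and integrated stress response genes 1 rose (2.56%) and 2 fell (5.13%), near or below the shares of all tested genes. After median-ratio scaling 7 fell, 8 under quantile normalization, 8 with the length trend removed and 6 with chromosome medians removed. Ero1l, an oxidase of the folding machinery, fell from 77.1 ± 8.22 to 52.8 ± 3.45 FPKM (−0.53, adjusted p = 0.00446), and Vldlr, a lipoprotein receptor, from 5.89 ± 0.543 to 2.95 ± 0.208 FPKM (−0.80, adjusted p = 2.7e-05). Ddit3, the stress factor CHOP, rose by 0.41 (adjusted p = 0.037), and by 0.25 (adjusted p = 0.023) without library C.

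The same sgRNA pair in tunicamycin, a blocker of N-linked glycosylation that causes stress of the endoplasmic reticulum, gave a second set of 6 libraries. It shares no library with the DMSO comparison, but 1 model over all CRISPRa libraries gave the spread for both. Calls in the 2 comparisons are therefore not independent. Both also set the same 2 sgRNA labels against each other, so any standing difference between those cells would enter both. Its part was not tested. In tunicamycin 1060 genes were called (9.45%), 290 higher (2.59%) and 770 lower (6.86%). Of these, 657 were called in the same direction in DMSO, which is 40.7% of the DMSO calls and 62.0% of the tunicamycin calls. Of the 1615 genes called in DMSO 1544 had the same sign in tunicamycin (95.6%), against 67.7% of all tested genes. Of the 44 genes that changed at least 2-fold in DMSO 43 had the same sign and 41 were called. The 3 not called were the predicted gene Gm4070, Pakap and the small nucleolar RNA Snord8, which was at 22.0, 0 and 32.1 FPKM in control and listed at 0 in the other 9 libraries. Mmp3 stood at −2.42 (adjusted p = 1.18e-06) in tunicamycin, Col3a1 at −2.0 (adjusted p = 7.51e-06), Mmp13 at −1.74 (adjusted p = 4.28e-07), Ckb at 0.87 (adjusted p = 0.000115) and Gpnmb at 0.80 (adjusted p = 1.93e-05). Over the 6 matrix lists 50 of 111 were lower and 4 higher.

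The difference of the 2 effects was tested as an interaction. None of the 11218 genes passed in limma at an adjusted p under 0.05, with 908 at an unadjusted p under 0.05 and a smallest adjusted p of 0.377. This does not show that the effects were alike. Adm, for example, stood at −0.75 in DMSO and −1.80 (adjusted p = 0.000393) in tunicamycin, and Id1 at 0.54 and −0.02 (adjusted p = 0.943). Without control library B or without Son sgRNA library C, both in DMSO, 1 gene passed.

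**Figure D4:**
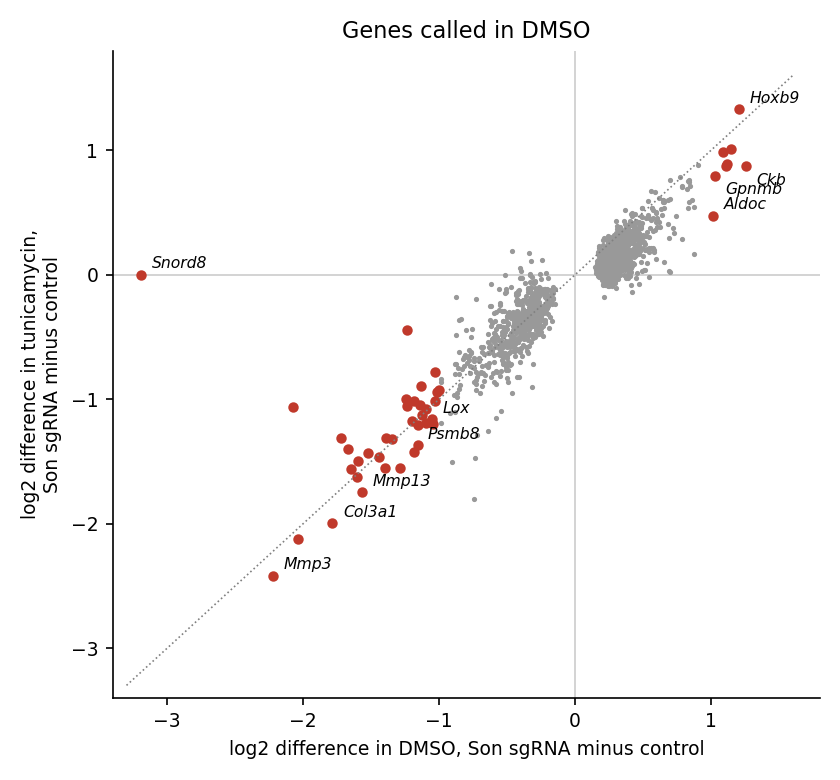
Log2 difference, Son sgRNA minus control, in DMSO (x axis) and in tunicamycin (y axis) for the 1615 genes called in DMSO, with the 44 genes of at least 2-fold change in red and equality dotted. Of all 1615 genes 1544 lie in the lower left or upper right, and Snord8 lies at 0 in tunicamycin.

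In the Son siRNA comparison in DMSO, made of other libraries, 10673 of the genes were tested too and 36.2% of them were called. Of the 1461 genes called here that were tested there, 575 were called (39.4%, near that background), 309 of them in the same direction. The 575 genes are 14.9% of the calls of the siRNA comparison. Col3a1 stood at 0.12 (adjusted p = 0.495) with Son siRNA, Mmp3 at 0.16 (adjusted p = 0.278), Thbs2 at 0.14 (adjusted p = 0.295) and Lox at 0.18 (adjusted p = 0.112), none of them called. Son itself was called lower with Son siRNA, at −0.97 (adjusted p = 7.04e-10). Psmb8 fell there as well (−0.60, adjusted p = 3.41e-05) and Cd74 rose (0.48, adjusted p = 0.000367), while Ckb fell (−0.20, adjusted p = 0.00906). Psmb8 was not alone there: 17 of 20 MHC class I genes were called lower (median −0.45), against 3 with Son sgRNA. Of 52 interferon response genes 48 were called lower there (median −0.55) and 1 higher, against 2 and 5 with Son sgRNA. Of all genes tested there 16.1% were called lower. Whether the falls of Psmb8 in the sgRNA and siRNA comparisons are linked was not tested.

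Differences also followed chromosomes, a pattern looked for after the values had been seen and given without a test. Relative to the median of all tested genes, the 536 tested genes of chromosome 10 had median log2 differences from the control mean of 0.148, 0.153 and 0.117 in libraries A, B and C with Son sgRNA in DMSO, and of 0.155, 0.159 and 0.161 in those in tunicamycin. Chromosome 18 (261 genes) lay at −0.104, −0.106 and −0.166 in DMSO, and chromosome 8 (594 genes) at −0.0789, −0.0833 and −0.0519. The control libraries, set against their own mean, stayed between −0.0061 and 0.0060 on every chromosome in DMSO and between −0.0088 and 0.0104 in tunicamycin. On chromosome 10, 198 genes were called higher (36.9%, against 9.11% of all tested genes) and 15 lower, and in libraries A and B all 12 windows of 10 Mb with at least 20 genes lay above 0, from 0.0440 to 0.230. In library C 11 of the 12 did. Chromosomes 1, 5 and 6 lay above 0 in all 6 libraries labelled Son sgRNA.

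Windows could differ from their chromosome. On chromosome 1 the window from 40 to 50 Mb, which holds Col3a1 and Col5a2, lay at −0.154, −0.156 and −0.298 in libraries A, B and C, and the next one, from 50 to 60 Mb, at 0.115, 0.144 and 0.0667. With the median of each chromosome removed from each library, 516 genes were called higher (4.60%) and 733 lower (6.53%), and over the matrix lists 43 fell and 6 rose. That setting also removes the shift of each library as a whole. Median-ratio scaling, which scales whole libraries only, gave 680 higher (6.06%) and 896 lower (7.99%), and over the matrix lists 46 fell and 6 rose. With chromosome medians removed Mmp3 stood at −2.23 (adjusted p = 5e-06), Col3a1 at −1.88 (adjusted p = 2.09e-05) and Gpnmb at 0.93 (adjusted p = 2.98e-06). The smaller values that follow, under that setting, hold the library-wide shift as well as that of the chromosome. Several of the small rises given above belong to genes of chromosome 10 and were smaller relative to it: Stat2, an interferon signalling factor, went from 0.28 to 0.10 (adjusted p = 0.263), Cdk1, the mitotic kinase, from 0.34 to 0.15 (adjusted p = 0.306), the ATP synthase subunit gene Atp5b from 0.36 to 0.18 (adjusted p = 0.132), Col6a1 from 0.24 to 0.06 (adjusted p = 0.605), Mdm2 from 0.33 to 0.15 (adjusted p = 0.0497) and Prim1 from 0.44 to 0.26 (adjusted p = 0.0156). Gene copy number was not measured, and the part of chromosomes in the other results was not tested beyond this.

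**Figure D5:**
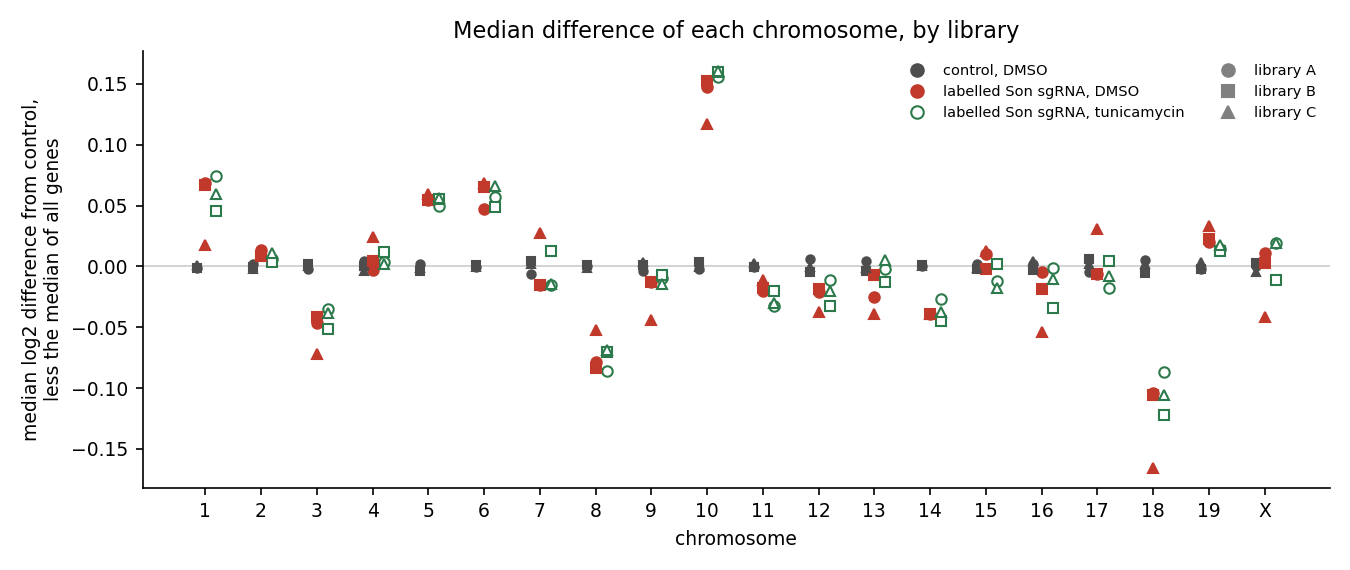
Median log2 difference of the tested genes of each chromosome from the mean of the controls of the same treatment, less the median of all genes (y axis), by chromosome (x axis). Points are single libraries: control in DMSO (grey), labelled Son sgRNA in DMSO (red) and in tunicamycin (green, open). Chromosome 10 lies highest, at 0.117 to 0.161 in the 6 libraries labelled Son sgRNA, and chromosome 18 lowest.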

How the data were processed

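RNA was measured as FPKM in 12 CRISPRa libraries in 4 groups of 3. The authors deposited a table of FPKM values per gene. The submitters' processing notes name mm10, Trimmomatic, Trim Galore, HISAT2, Salmon and Cufflinks. The sources used here give neither their roles and versions nor the annotation. FPKM is scaled per library, so read depth is unknown and a bias of transcript length within a library stays in the values. Columns carry letters A to C that the labels' replicate numbers do not match, and the control columns not headed as siRNA controls were taken as control sgRNA.

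For 275 symbols on 807 lines the line of highest mean was kept. A further 27 lines with dates in place of symbols, 17 of which reached a mean of 1, were left out. Genes with a mean of at least 1 FPKM over the 12 libraries were tested as log2(FPKM + 1), a scale that understates the change of low genes, in 1 model over the 4 groups (limma 3.58.1, R 4.3.3, eBayes with trend, two-sided, Benjamini-Hochberg adjusted over all tested genes). The interaction is the tunicamycin difference less the DMSO difference. The siRNA libraries were fitted on their own. The model was tested on simulated data.

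Coordinates and the longest transcript come from GENCODE for GRCm38, matched by symbol (10787 and 10806 of 11218 genes). Named genes are Son, Gart and Donson, the 12 raised and 12 lowered called genes of largest log2 difference with at least 5 FPKM in the higher group and no overlap, and up to 4 called members of each of 36 lists with at least 3 called members. Predicted genes (Gm, Rik and LOC symbols) and pseudogenes were passed over in ranking the raised and lowered genes. Other genes were named after their values were seen, to fill out a list or a small count. The members and lists were chosen with earlier results of these data known. Lists are described by counts and medians, without a set test. Alternatives were other pseudocounts (0.1), filters, scalings, library weights, a length or chromosome correction, a replicate block, and each library left out. Removing chromosome medians, and combining the fits without library C with others, were added after seeing the data.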

Additional observations from a re-analysis of the deposited data

How the results depend on the processing

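With every single library left out in turn, 746 to 2646 genes were called, 430 to 1795 higher and 316 to 851 lower, Son stood at −0.37 to 0.022, and 0 or 1 gene passed the interaction. Only the 2 DMSO groups gave 573 calls (290 higher, 283 lower), and these without library C 3136 (2094 and 1042, Son at 0.022, the opposite sign). Library weights gave 7471 calls (5031 and 2440), 2551 interaction calls and Son called at −0.089 (adjusted p = 0.03). These weights ran from 0.0291 for library C to 43.3 for library B labelled Son sgRNA, and their estimation did not converge. Length correction gave 2442 calls with 1301 lower, and without library C 2489 with 1291 lower, 1 interaction call and Son at 0.018, the opposite sign. Median-ratio scaling gave 680 higher and 896 lower, a filter at a mean of 5 gave 349 lower, and removal of chromosome medians 516 higher. The causes were not tested, apart from the fewer genes or libraries that some settings use. Same-lettered libraries did not deviate together (correlations −0.0168, −0.0032 and −0.0018 for Son sgRNA against control), so the letters were not taken as pairs. A replicate block by letter gave 1450 calls, 916 higher and 534 lower, with Son at −0.20 (adjusted p = 0.386). Of the 119 named genes other than Son, Gart and Donson, 79 kept direction and call in each of the 26 settings that tested them, 86 without any single library, and none changed sign. With 3 libraries a group and FPKM alone, small differences and short or low genes are the least certain.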

Other observations

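Some lists showed calls that hung on library C. Of 4 tested genes of the metallothionein and zinc response list none was called with all libraries, while without library C Mt1 and Mt2, which bind zinc and copper, stood at −0.55 (adjusted p = 0.000517) and −0.50 (adjusted p = 0.00168), and the zinc exporter gene Slc30a1 at 0.22 (adjusted p = 0.0401). Mt1 was at 446, 491 and 498 FPKM in control and 323, 327 and 508 FPKM with Son sgRNA, for libraries A, B and C in order. Of 32 growth factor feedback and immediate early genes 3 rose and 2 fell, and without library C 4 rose and 6 fell. Errfi1, a feedback inhibitor of the EGF receptor, fell from 37.9 ± 0.837 to 27.6 ± 0.823 FPKM (−0.45, adjusted p = 0.00101). Of 31 cholesterol and fatty acid synthesis genes 1 fell, the desaturase gene Scd2, and without library C 2 rose and 2 fell.

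Outside the lists, genes of at least 2-fold change with under 5 FPKM in the higher group, named after their values were seen, included Bmyc, a Myc relative, from 4.81 ± 0.296 to 0.427 ± 0.243 FPKM (−2.04, adjusted p = 6.81e-07), the protocadherin Pcdh7, from 3.29 ± 0.0497 to 0.412 ± 0.115 FPKM (−1.61, adjusted p = 4.25e-07), and, among those that rose, the adhesion receptor Selp, from 0.437 ± 0.112 to 2.05 ± 0.0759 FPKM (1.09, adjusted p = 5.95e-06), the membrane protein Mal, from 1.33 ± 0.0468 to 4.17 ± 0.400 FPKM (1.15, adjusted p = 5.85e-06), and the retinol carrier Rbp4, from 0.584 ± 0.282 to 2.46 ± 0.717 FPKM (1.12, adjusted p = 0.000683). All 5 had the same sign in tunicamycin, at −2.12, −1.62, 0.99, 1.01 and 0.89.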
